A study of Homo sapiens with 8 samples.

Results

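The angiopoietin family was followed across cells made from human pluripotent stem cells through lateral plate mesoderm and cultured with or without FGF8 and FGF10. It comprises the ligand genes ANGPT1 and ANGPT2 and the TIE receptor genes TEK and TIE1. The members were taken by gene name, 4 of the 61209 names in the count table, and all 4 passed the filter on low counts that left 22554 genes for testing. They were selected on measured values of these libraries, since the FGF8+10 effects on ANGPT1 in Pdgfralow cells and on TEK and TIE1 in Pdgfra+ cells were already known. Their levels and fold changes are therefore given as a description, without p-values. All cells came from H1, a widely used line of human embryonic stem cells. It carried an Msx1-P2A-tdTomato reporter, in which a fluorescent protein marks cells that use the MSX1 gene. All received Activin A, the GSK3 inhibitor CHIR99021, BMP4 and FGF2, and then BMP4 with CHIR99021. They were dissociated on day 4, spun into pellets of 25000 cells per well, moved to larger plates on day 5 and harvested on day 8. The groups were FGF8+10 Pdgfra+, FGF8+10 Pdgfralow, Mock Pdgfra+ and Mock Pdgfralow, each with 2 libraries. Every group was also Msx1+ by sorting. FGF8 and FGF10 were given at 500 ng/mL each. The labels carry 1 protocol text for all libraries and do not describe the Mock medium.

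Angiopoietins are secreted glycoproteins that bind TEK, a receptor tyrosine kinase best known from endothelial cells and also called TIE2. ANGPT1, usually made by mesenchymal and perivascular cells, activates TEK and steadies vessels, whereas ANGPT2, usually made by endothelium, blocks or weakly activates it depending on context. TIE1 is the related receptor that pairs with TEK at the cell surface and does not itself bind angiopoietins with high affinity. In a limb bud ANGPT1 comes mostly from mesenchyme and the receptors from the vessels growing into it.

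TEK lies on the plus strand of chromosome 9 at 27109141 to 27230174 and TIE1 on the plus strand of chromosome 1 at 43300982 to 43323108 (GRCh38, exon limits of the counting annotation). Neither shares an exon base with another gene. The 166 bases directly before the first exon base of each receptor gene are shown because the receptors, although close relatives, had different patterns across the groups. They come from RefSeq (GRCh38.p14, plus strand). Capitals mark GGAA, the core that ETS transcription factors such as FLI1 and ERG recognise, searched on both strands (TTCC is GGAA on the minus strand).
TIE1 chr1:43300816-43300981: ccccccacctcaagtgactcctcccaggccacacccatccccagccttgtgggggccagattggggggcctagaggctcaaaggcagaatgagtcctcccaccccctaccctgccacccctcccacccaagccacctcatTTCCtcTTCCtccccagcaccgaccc
TEK chr9:27108975-27109140: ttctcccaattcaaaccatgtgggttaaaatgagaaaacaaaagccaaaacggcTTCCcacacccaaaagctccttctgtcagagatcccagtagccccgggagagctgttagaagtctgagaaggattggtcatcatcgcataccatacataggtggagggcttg
The TIE1 window held 2 matches and the TEK window 1, all on the minus strand. Of 35116 RefSeq windows of the same length, taken directly before a RefSeq start, 83.2% held at least 1 match, with a median of 2. The TIE1 window was 65.7% G or C and the TEK window 47.6%, against a median of 59.6% over all windows. The RefSeq start of TEK lies 84 bases downstream of the first exon base used here.

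The libraries held 47698561 to 64390444 counts, with both mates of a read pair counted. Replicates of a group correlated at Pearson's r of 0.9976 to 0.9984 across genes on the log2(CPM + 1) scale. Whether these biological replicates were differentiated separately is not stated in the labels, so spreads and p-values measure only the difference between these libraries. Levels are given as CPM after TMM scaling, that is, as counts scaled to a common library size. PDGFRA, the receptor gene of the gate, averaged 714 and 286 CPM in Pdgfra+ and Pdgfralow cells under FGF8+10, and 454 and 192 CPM under Mock, higher in the Pdgfra+ gate under both treatments. MSX1 averaged 50.3 and 50.7 CPM in FGF8+10 Pdgfra+ and FGF8+10 Pdgfralow cells, and 21.7 and 26.2 CPM in Mock Pdgfra+ and Mock Pdgfralow cells. Of 13 limb mesenchyme markers, 11 were tested, and HAND2, PRRX1 and MEIS2 were the most abundant, at means of 399, 215 and 97.6 CPM over all libraries. LHX9 and EMX2 had 3 and 12 counts in all 8 libraries. With FGF8+10, 5 of the tested markers were higher and 4 lower in Pdgfra+ cells, and 2 were higher and 8 lower in Pdgfralow cells. Of all tested genes, 50.9% passed the same test in Pdgfra+ and 55.7% in Pdgfralow cells. Sorting came at the end of the culture, so a difference between treatments can come from the cells a gate took as well as from a response. In such bulk RNA, fewer cells of a type and less RNA per cell cannot be told apart.

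ANGPT1, the activating ligand, had the widest range of the family on the log scale. Its gene lies on the minus strand of chromosome 8 at 107249482 to 107498055 and shares no exon base with another gene. It stood at 310 and 308 CPM in the FGF8+10 Pdgfra+ libraries and at 258 and 262 CPM in the FGF8+10 Pdgfralow libraries. It stood at 18.5 and 19.7 CPM in the Mock Pdgfra+ libraries and at 0.854 and 0.992 CPM in the Mock Pdgfralow libraries. The order of the groups ran from FGF8+10 Pdgfra+ down to Mock Pdgfralow. The Mock Pdgfralow values rest on 52 and 60 counts, well above the 6 counts (3 read pairs) taken as the limit for a gene without reads, which is 0.0986 and 0.0992 CPM in those libraries. With FGF8+10, ANGPT1 was 16.2-fold higher than with Mock in Pdgfra+ cells (log2 fold change 4.01 ± 0.038, SE, 2 libraries per group). In Pdgfralow cells it was 281-fold higher with FGF8+10 than with Mock (log2 fold change 8.14 ± 0.059). A second method, DESeq2, gave 8.15 with an SE of 0.14. The SE of 0.059 is too small for 52 and 60 Mock counts, whose counting error alone is larger. Between the populations ANGPT1 differed little under FGF8+10 (log2 fold change 0.25 ± 0.029, Pdgfra+ minus Pdgfralow). Under Mock it was 20.7-fold higher in Pdgfra+ than in Pdgfralow cells (4.37 ± 0.086), so the populations were far apart without the FGFs and close with them. That SE too is below the counting error, and DESeq2 gave 4.36 with an SE of 0.14.

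ANGPT2, the context-dependent ligand, is encoded on the minus strand of chromosome 8 at 6499632 to 6563409. The gene sits inside MCPH1, which is transcribed from the other strand, and 658 of its 6794 exon bases (9.69%) are shared with MCPH1 exons. Reads over both genes' exons were dropped by the counting and are not in the ANGPT2 values. ANGPT2 was 125 and 130 CPM in the FGF8+10 Pdgfra+ libraries and 144 CPM in each FGF8+10 Pdgfralow library. It was 20.1 and 20.8 CPM in the Mock Pdgfra+ libraries and 20.9 and 21.1 CPM in the Mock Pdgfralow libraries. Levels were higher with FGF8+10 in both populations, and the Mock libraries of both populations lay between 20.1 and 21.1 CPM. The log2 fold change of FGF8+10 against Mock was 2.64 ± 0.045 in Pdgfra+ and 2.77 ± 0.044 in Pdgfralow cells, or 6.23-fold and 6.84-fold. Unlike ANGPT1, it was slightly lower in Pdgfra+ than in Pdgfralow cells under FGF8+10 (log2 fold change -0.18 ± 0.037). Under Mock that difference was -0.04 ± 0.052.

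**Figure D1:**
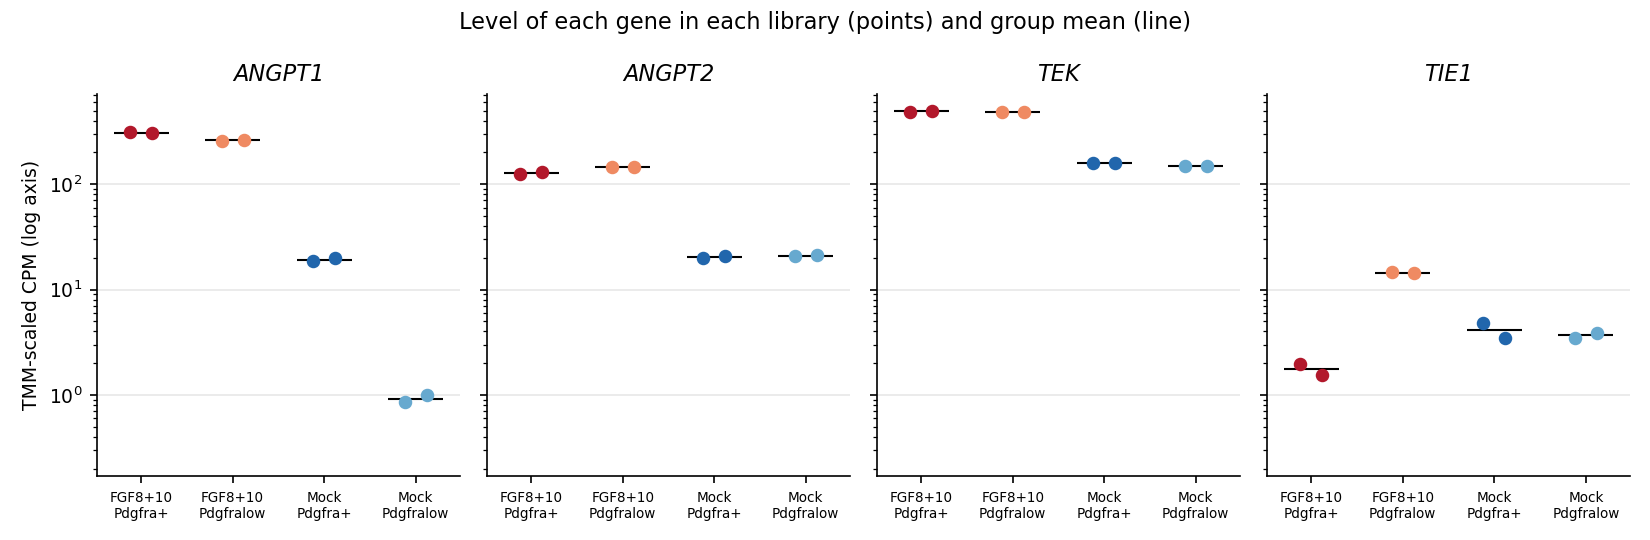
TMM-scaled CPM of ANGPT1, ANGPT2, TEK and TIE1 on a log axis, with 1 point per library and a line at the mean of the 2 libraries of each group. ANGPT1 falls to 0.923 CPM in Mock Pdgfralow cells, ANGPT2 and TEK separate by treatment, and TIE1 peaks at 14.5 CPM in FGF8+10 Pdgfralow cells.

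Levels of different genes were compared per kilobase of exon. On that scale (CPM per kb) ANGPT1 exceeded ANGPT2 in both FGF8+10 groups, by a ratio of 2.37 and 2.26 in the Pdgfra+ libraries and of 1.71 and 1.74 in the Pdgfralow libraries. In Mock Pdgfra+ cells the ratio was 0.882 and 0.903, near equality, and there the order depended on the length used. The ANGPT2 length includes the 658 bases shared with MCPH1, where reads were dropped. Its level per kilobase can thus be too low, and each ratio of ANGPT1 to ANGPT2 too high. With the longest coding transcript of each gene in place of all its exons the mean ratio in Mock Pdgfra+ cells was 1.16. That length is of GENCODE release 29, whereas the counts are over all exons of release 42, so the lengths are not fully alike. In Mock Pdgfralow cells ANGPT2 exceeded ANGPT1 by 25.6 and 22.3. The ligands summed to 61.9 and 62.3 CPM per kb in the FGF8+10 Pdgfra+ libraries and to 57.4 and 57.9 CPM per kb in the FGF8+10 Pdgfralow libraries. They summed to 5.55 and 5.82 CPM per kb in the Mock Pdgfra+ libraries and to 3.19 and 3.25 CPM per kb in the Mock Pdgfralow libraries. The FGF8+10 groups thus held more of both transcripts, with ANGPT1 in the lead, and the Mock Pdgfralow group held mostly ANGPT2.

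TEK, the angiopoietin receptor, was the most abundant member in every library. It stood at 485 and 496 CPM in the FGF8+10 Pdgfra+ libraries and at 480 and 486 CPM in the FGF8+10 Pdgfralow libraries. It stood at 158 and 159 CPM in the Mock Pdgfra+ libraries and at 148 CPM in each Mock Pdgfralow library. The populations had similar levels under FGF8+10, and under Mock Pdgfra+ cells were slightly higher. The log2 fold change of FGF8+10 against Mock was 1.63 ± 0.025 in Pdgfra+ and 1.70 ± 0.025 in Pdgfralow cells, or 3.10-fold and 3.26-fold. Pdgfra+ minus Pdgfralow, the log2 difference was 0.02 ± 0.023 under FGF8+10 and 0.10 ± 0.026 under Mock. Per kilobase, TEK exceeded 99.1% of the tested genes in FGF8+10 Pdgfra+ cells and 99.0% in FGF8+10 Pdgfralow cells. It exceeded 96.0% in Mock Pdgfra+ and 95.4% in Mock Pdgfralow cells, so the receptor was among the more abundant transcripts in all 4 groups.

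TIE1, the partner receptor, was far below TEK in every library and was the member with a direction that differed between the populations. It stood at 1.98 and 1.56 CPM in the FGF8+10 Pdgfra+ libraries and at 14.7 and 14.3 CPM in the FGF8+10 Pdgfralow libraries. It stood at 4.82 and 3.49 CPM in the Mock Pdgfra+ libraries and at 3.50 and 3.84 CPM in the Mock Pdgfralow libraries. The FGF8+10 Pdgfralow libraries were highest and the FGF8+10 Pdgfra+ libraries lowest, while the Mock populations overlapped. The lowest values rest on 134 and 106 counts. With FGF8+10, TIE1 was lower than with Mock in Pdgfra+ cells (log2 fold change -1.22 ± 0.18). In Pdgfralow cells it was higher with FGF8+10 than with Mock (log2 fold change 1.98 ± 0.15). Pdgfra+ minus Pdgfralow, the log2 difference was -3.03 ± 0.16 under FGF8+10, or 8.18-fold lower in Pdgfra+ cells, and 0.17 ± 0.16 under Mock. The Mock difference turned to -0.07 without Mock Pdgfra+ replicate 1.

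Per kilobase, TEK exceeded TIE1 by a ratio of 341 and 444 in the FGF8+10 Pdgfra+ libraries and of 45.6 and 47.3 in the FGF8+10 Pdgfralow libraries. The ratio was 45.8 and 63.6 in the Mock Pdgfra+ libraries and 59.2 and 53.8 in the Mock Pdgfralow libraries. The FGF8+10 Pdgfra+ libraries stood apart, with more TEK and less TIE1 than Mock, whereas in FGF8+10 Pdgfralow cells both were higher than in Mock and the ratio lay near that of Mock. TEK also exceeded its ligand ANGPT1 per kilobase in every library. That ratio was 2.32 and 2.39 in the FGF8+10 Pdgfra+ libraries and 2.76 and 2.75 in the FGF8+10 Pdgfralow libraries. It was 12.6 and 12 in the Mock Pdgfra+ libraries and 258 and 221 in the Mock Pdgfralow libraries.

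**Figure D2:**
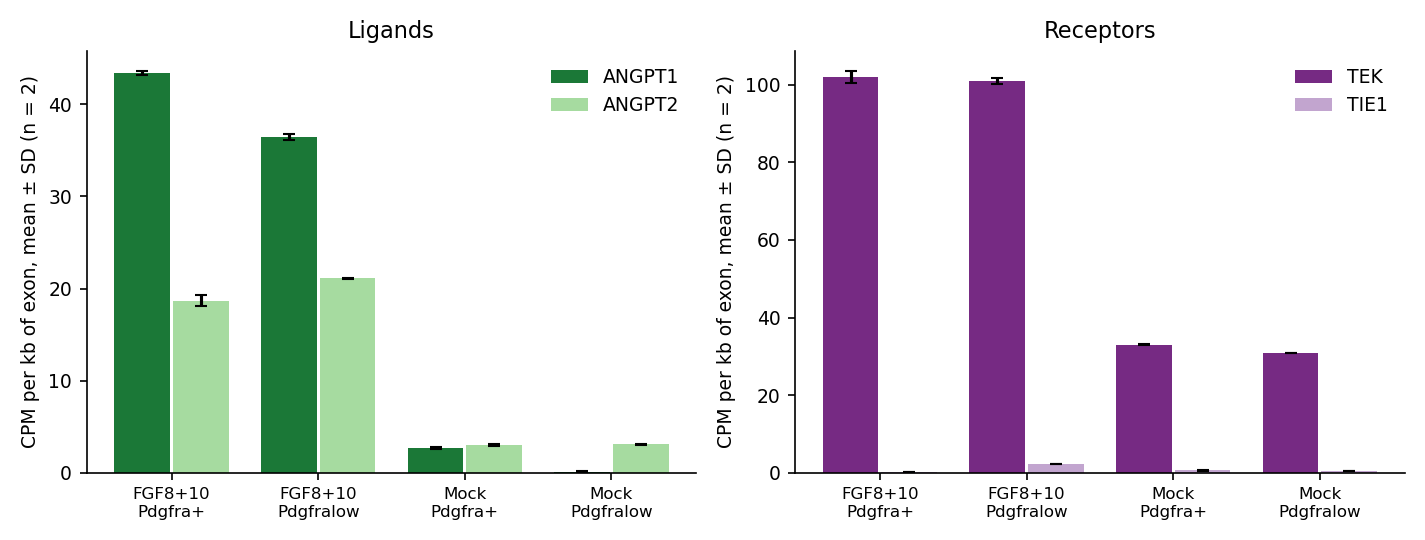
CPM per kilobase of exon for the ligands (left) and the receptors (right), as the mean of 2 libraries with SD bars, on linear axes that start at 0 and differ between the panels. ANGPT1 leads ANGPT2 in both FGF8+10 groups and is at 0.130 CPM per kb in Mock Pdgfralow cells, while TEK is at 30.9 to 102 CPM per kb and TIE1 at most at 2.17.

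By edgeR's quasi-likelihood test at a Benjamini-Hochberg adjusted p of 0.05 over all genes, 3 of the 4 members were higher and 1 lower with FGF8+10 in Pdgfra+ cells, where 50.9% of all tested genes passed (25.8% higher and 25.1% lower). In Pdgfralow cells 4 of 4 were higher, where 55.7% of all genes passed (27.9% higher and 27.7% lower). Between Pdgfra+ and Pdgfralow cells, 1 was higher and 2 were lower under FGF8+10, against 41.4% of all genes (19.6% higher and 21.7% lower), and TEK did not pass. Under Mock, ANGPT1 and TEK were higher, against 25.8% of all genes (12.4% higher and 13.4% lower). The TEK difference under Mock was 0.08 and no longer passed when genes with low counts were kept. The difference between the FGF8+10 effects passed for ANGPT1 and TIE1, against 26.0% of all genes. That difference, Pdgfra+ minus Pdgfralow on the log2 scale, was -4.12 ± 0.095 for ANGPT1 and -3.21 ± 0.23 for TIE1. For ANGPT1 DESeq2 gave -4.13 with a larger SE of 0.15. The edgeR difference was -0.14 ± 0.064 for ANGPT2 and -0.07 ± 0.035 for TEK. Nothing is read from these counts, since the members were chosen with such effects known.

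**Figure D3:**
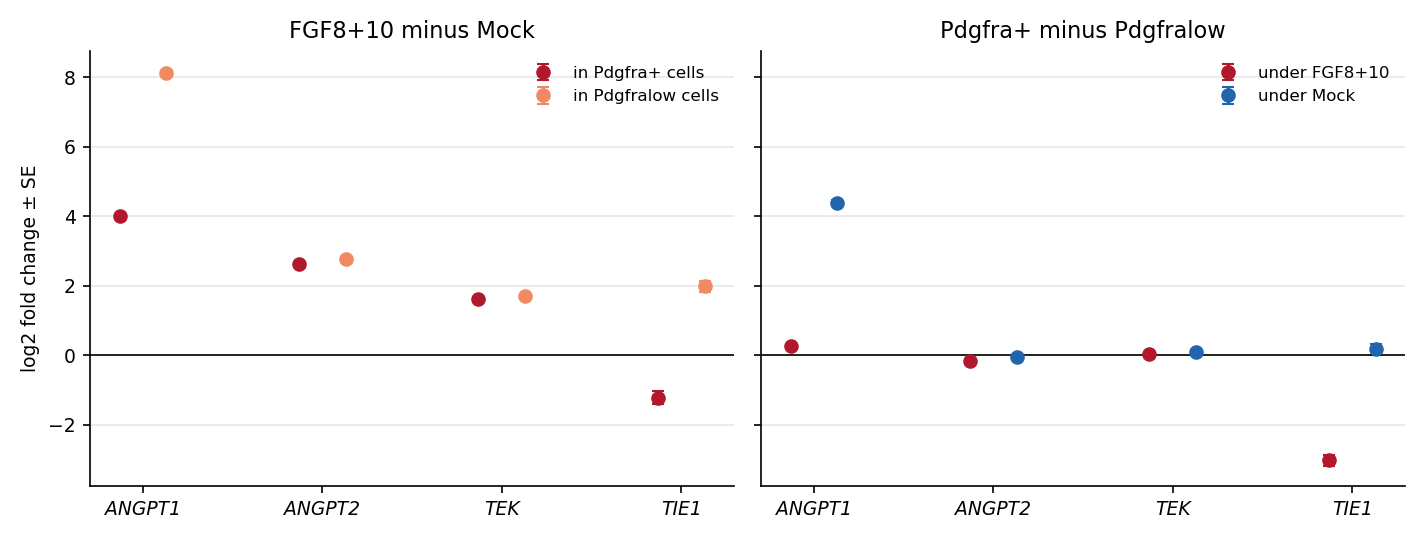
Log2 fold changes with edgeR SE bars of the 4 members for FGF8+10 minus Mock in each population (left) and for Pdgfra+ minus Pdgfralow under each treatment (right). The bars of ANGPT1 in contrasts with Mock Pdgfralow cells are too short, below the counting error. ANGPT1 differs between populations under Mock (4.37) and TIE1 under FGF8+10 (-3.03), while ANGPT2 and TEK lie within 0.18 of 0 in the right panel.

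Since both receptors are known as endothelial genes, 15 endothelial markers were set beside them. With FGF8+10 in Pdgfralow cells 14 of these were higher and 0 lower, against 27.9% of all genes higher and 27.7% lower. Their median log2 fold change was 3.82, against a median of -0.015 over all genes tested. In Pdgfra+ cells 10 were higher and 1 lower, against 25.8% and 25.1% of all genes. The median there was 0.55 against -0.011 over all genes. Under FGF8+10, 2 (FLI1 and CLEC14A) were higher and 13 lower in Pdgfra+ than in Pdgfralow cells. Of all genes, 19.6% were higher and 21.7% lower in that contrast. Their summed level was 1910 to 1920 CPM in FGF8+10 Pdgfra+, 2380 in FGF8+10 Pdgfralow, 1250 to 1260 in Mock Pdgfra+ and 1270 to 1280 CPM in Mock Pdgfralow libraries. Most of each sum was KDR, the VEGF receptor gene that lateral plate mesoderm also uses, at 1610, 1970, 1150 and 1210 CPM in the same order of groups. EGFL7, a secreted vessel protein gene, and FLI1, an ETS factor gene, came next, with means of 80.5 and 86.3 CPM over all libraries. FLI1 averaged 185, 131, 24 and 6.18 CPM in the same order of groups, so it was highest in FGF8+10 Pdgfra+ cells.

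The junction and adhesion genes that define endothelium were much lower. PECAM1 averaged 2.60 ± 0.72 CPM in FGF8+10 Pdgfra+, 18.5 ± 1.3 in FGF8+10 Pdgfralow, 0.939 ± 0.066 in Mock Pdgfra+ and 0.676 ± 0.043 CPM in Mock Pdgfralow cells (SD, n = 2). CDH5 (VE-cadherin) averaged 1.39 ± 0.47, 19.8 ± 0.58, 0.956 ± 0.30 and 1.40 ± 0.37 CPM in the same groups, and ESAM 1.00 ± 0.088, 16.3 ± 0.20, 0.895 ± 0.033 and 0.717 ± 0.078 CPM. PECAM1, CDH5, ESAM and ERG were named here after their values were seen. VWF, CLDN5, SOX17 and ROBO4 averaged under 1 CPM over all libraries and had their highest group means, 0.865 to 2.37 CPM, in FGF8+10 Pdgfralow cells. With KDR, FLI1, EGFL7 and ERG left out, a choice made after the values were seen, the other 11 markers summed to 16.0 to 16.4 CPM in FGF8+10 Pdgfra+ and 95.5 to 96.5 CPM in FGF8+10 Pdgfralow libraries. They summed to 7.68 to 9.52 CPM in Mock Pdgfra+ and 6.02 to 7.16 CPM in Mock Pdgfralow libraries.

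The highest TIE1 libraries were thus those of the group with the highest mean of each endothelial marker except FLI1 and CLEC14A. These 2 were highest in FGF8+10 Pdgfra+ cells, where TIE1 was lowest. In Pdgfra+ cells TIE1 was lower with FGF8+10 than with Mock, while the sum of the 11 markers was higher. These markers did not move together there. By edgeR's test PECAM1, SOX17, SOX18, EMCN, ROBO4 and CLEC14A were higher and CLDN5, like TIE1, was lower. CDH5, ESAM, VWF and MMRN2 did not pass. TEK differed little between the FGF8+10 populations, whose PECAM1 and CDH5 levels differed severalfold, and it was above 100 CPM in Mock cells whose PECAM1 was below 1 CPM. The part of endothelial cells in the TIE1 and TEK values was not tested. Blood markers, which would accompany TEK in blood progenitors, were at or near the limit of detection for PTPRC, HBZ and HBE1, with 0 to 13 counts over all 8 libraries. CD34, which endothelium shares, was the most abundant blood marker, at 14.7 CPM in FGF8+10 Pdgfralow and at most 2.05 CPM in the other groups, followed by ITGA2B and RUNX1, with means of 1.58 and 1.36 CPM. TAL1, a transcription factor gene of blood and endothelial progenitors, averaged 0.192 CPM in FGF8+10 Pdgfra+, 3.95 in FGF8+10 Pdgfralow, 0.377 in Mock Pdgfra+ and 0.388 CPM in Mock Pdgfralow cells, highest where TIE1 was highest. With FGF8+10, 50.9% of all genes passed in Pdgfra+ and 55.7% in Pdgfralow cells. Of 10 blood markers 6 were tested. Of these, 0 were higher and 1 (RUNX1) lower with FGF8+10 in Pdgfra+ cells, and 2 higher (CD34 and TAL1) and 2 lower (ITGA2B and GATA1) in Pdgfralow cells. ITGA2B averaged 0.775 CPM in FGF8+10 Pdgfralow and 2.38 CPM in Mock Pdgfralow cells, its highest group mean. GATA1 had at most 12 counts in a library. The whole list summed to 3.92 to 4.05 CPM in FGF8+10 Pdgfra+, 20.4 to 22.6 in FGF8+10 Pdgfralow, 5.40 to 5.98 in Mock Pdgfra+ and 5.64 to 5.83 CPM in Mock Pdgfralow libraries.

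**Figure D4:**
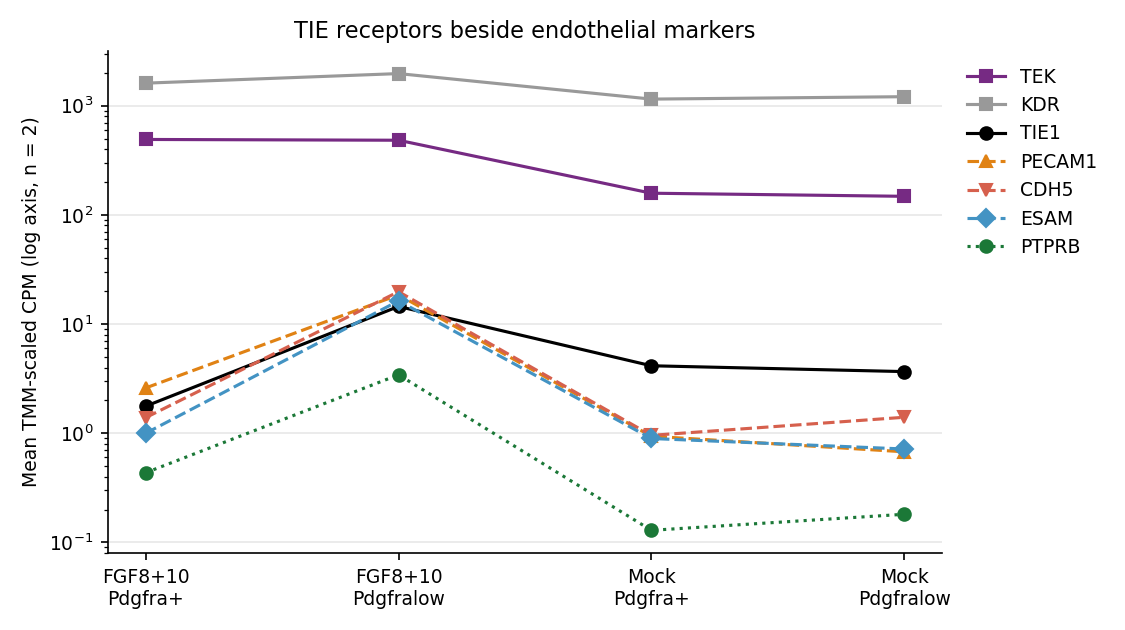
Mean TMM-scaled CPM (n = 2 libraries) on a log axis for TEK, TIE1, their phosphatase gene PTPRB and 4 endothelial markers across the 4 groups, with lines that only join the values of a gene. PECAM1, CDH5, ESAM, PTPRB and TIE1 peak in FGF8+10 Pdgfralow cells, while TEK is level between the populations of a treatment. PECAM1, CDH5 and ESAM were picked after their values were seen, and FLI1 and CLEC14A, highest in FGF8+10 Pdgfra+ cells, are not shown.

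Of 27 further genes of the TIE pathway, listed as ligands, receptor regulators, adaptors and effectors, 24 were tested. With FGF8+10, 14 were higher and 3 lower in Pdgfra+ cells, with a median log2 fold change of 0.21. In Pdgfralow cells 16 were higher and 1 lower, with a median of 0.32. Of all genes, 25.8% were higher and 25.1% lower in Pdgfra+ cells, and 27.9% higher and 27.7% lower in Pdgfralow cells. Library totals without TMM moved the median gene to 0.161 and 0.146. The splits of the pathway genes then became 19 higher and 1 lower in each population. Most of these changes were small. Past 2-fold with FGF8+10 in Pdgfra+ cells were ANGPT4 and PTPRB, and in Pdgfralow cells PTPRB and ITGB1. These genes were named because they passed, so their p-values are only a description. PTPRB encodes the vascular phosphatase that removes phosphate from TEK. It averaged 0.435 ± 0.092 CPM in FGF8+10 Pdgfra+, 3.43 ± 0.19 in FGF8+10 Pdgfralow, 0.129 ± 0.0070 in Mock Pdgfra+ and 0.181 ± 0.046 CPM in Mock Pdgfralow cells. It rose by 4.23 ± 0.38 on the log2 scale in Pdgfralow cells (edgeR adjusted p = 3.21e-13) and by 1.73 ± 0.49 in Pdgfra+ cells (edgeR adjusted p = 0.0025), where its Mock mean was at the limit for a gene without reads.

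Among the other ligands, ANGPT4 had at most 36 counts in a library and averaged 0.473 CPM in FGF8+10 Pdgfra+ and 0.0656 CPM in Mock Pdgfra+ cells. It rose by 2.82 ± 0.83 on the log2 scale (edgeR adjusted p = 0.00381), a size that is uncertain because the Mock mean lies below the limit for a gene without reads. SVEP1, a matrix protein reported to bind TIE1, was abundant at 180, 164, 143 and 133 CPM in FGF8+10 Pdgfra+, FGF8+10 Pdgfralow, Mock Pdgfra+ and Mock Pdgfralow cells. LECT2 had 2 counts in all 8 libraries. ITGB1, the integrin subunit of fibronectin receptors, averaged 1210, 1680, 751 and 821 CPM in that order of groups and rose by 1.03 ± 0.019 in Pdgfralow cells (edgeR adjusted p = 6.8e-39). Of the adaptors, GRB2, SHC1 and PTPN11 averaged 83, 230 and 157 CPM over all libraries, whereas DOK2 and GRB7, with 7 and 45 counts in all, were not tested. These named adaptors lie outside the 2-fold rule and were chosen after their values were seen. Between Pdgfra+ and Pdgfralow cells, 6 of the 24 were higher and 10 lower under FGF8+10, and only PTPRB passed 2-fold, with a log2 fold change of -2.97 ± 0.34 (edgeR adjusted p = 3.87e-10). Of all genes, 19.6% were higher and 21.7% lower under FGF8+10. Under Mock 4 of the pathway genes were higher and 3 lower, against 12.4% and 13.4% of all genes. Scaled by library totals the Mock split was 3 and 6. Without Mock Pdgfralow replicate 2 the Mock count was 4 in place of 7.

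The angiopoietin-like genes encode relatives of the angiopoietins that do not act through the TIE receptors. Of 8, 6 were tested, while ANGPTL5 and ANGPTL7 had 31 and 3 counts in all libraries. With FGF8+10, 1 was higher and 2 lower in Pdgfra+ cells, with a median log2 fold change of -0.86. In Pdgfralow cells 0 were higher and 3 lower, with a median of -0.47. Of all genes, 50.9% passed in Pdgfra+ and 55.7% in Pdgfralow cells. ANGPTL2, a secreted protein of connective tissue, averaged 33.9 and 27.3 CPM in FGF8+10 Pdgfra+ and FGF8+10 Pdgfralow cells, and 208 and 194 CPM in Mock Pdgfra+ and Mock Pdgfralow cells. Its log2 fold changes were -2.62 ± 0.049 and -2.83 ± 0.051 (edgeR adjusted p = 8.95e-26 and 2.64e-26), opposite in sign to those of ANGPT1 and ANGPT2. ANGPTL1, at means under 2 CPM in every group, also fell, with log2 fold changes of -1.47 ± 0.33 and -1.74 ± 0.33 (edgeR adjusted p = 0.000166 and 1.49e-05). ANGPTL4, a lipase inhibitor gene, rose by 0.46 ± 0.069 in Pdgfra+ cells and had a log2 fold change of -0.40 ± 0.072 in Pdgfralow cells (edgeR adjusted p = 1.58e-07 and 6.43e-06). Under FGF8+10 it was 40.5 CPM in Pdgfra+ and 20.0 CPM in Pdgfralow cells.

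Other vascular and signalling genes were read for context. Their counts stand beside all genes, of which 25.8% were higher and 25.1% lower with FGF8+10 in Pdgfra+ cells. In Pdgfralow cells 27.9% of all genes were higher and 27.7% lower. Of 10 VEGF ligands and receptors, 6 were higher and 2 lower with FGF8+10 in Pdgfra+ cells, and likewise 6 and 2 in Pdgfralow cells. VEGFA averaged 44.1 and 32.5 CPM in FGF8+10 Pdgfra+ and FGF8+10 Pdgfralow cells, against 727 and 593 CPM in Mock Pdgfra+ and Mock Pdgfralow cells, with log2 fold changes of -4.04 ± 0.031 and -4.19 ± 0.032 (edgeR adjusted p = 5.46e-54 and 4.19e-54). Its sign was opposite to that of ANGPT1 and ANGPT2. The VEGF coreceptor genes NRP1 and NRP2, the most abundant of the list after KDR, rose by 1.53 ± 0.022 and 0.53 ± 0.023 in Pdgfra+ cells and by 1.99 ± 0.022 and 1.28 ± 0.023 in Pdgfralow cells (edgeR adjusted p = 2.46e-43, 4.77e-24, 1.17e-47 and 4.33e-39). Of 12 hypoxia response genes, which include VEGFA, 1 was higher and 7 lower with FGF8+10 in Pdgfra+ cells and 2 were higher and 7 lower in Pdgfralow cells. P4HA1 and KDM3A were the most abundant of them after VEGFA, with means of 313 and 119 CPM. Of 9 FGF response genes, 9 were higher with FGF8+10 in each population, led in abundance by SPRED2, SPRY1 and SPRED1. SPRY1, an inhibitor of FGF signalling, averaged 201 and 172 CPM in FGF8+10 Pdgfra+ and FGF8+10 Pdgfralow cells, and 16.9 and 3.50 CPM in Mock Pdgfra+ and Mock Pdgfralow cells. Like ANGPT1, it was higher in Mock Pdgfra+ than in Mock Pdgfralow cells. Of 12 mural cell markers, of interest because mural cells make ANGPT1, 11 were tested, and RGS5, PDGFRB and NOTCH3 were the most abundant, with means of 300, 218 and 209 CPM. Of those tested, 5 were higher and 3 lower with FGF8+10 in Pdgfra+ cells and 5 higher and 4 lower in Pdgfralow cells. The list summed to 973 to 977 CPM in FGF8+10 Pdgfra+, 944 to 946 in FGF8+10 Pdgfralow, 759 to 761 in Mock Pdgfra+ and 771 to 782 CPM in Mock Pdgfralow libraries.

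For each member, the genes with the most similar profile were found by the root mean square distance between log2 CPM values over the 8 libraries, each gene centred on its own mean. For ANGPT1 they were COLEC10, ETV1, CDH13, GFRA1 and ELOVL3, at distances of 0.120 to 0.509 (log2). COLEC10, the nearest, averaged 80.3 and 76.8 CPM in FGF8+10 Pdgfra+ and FGF8+10 Pdgfralow cells, and 5.21 and 0.280 CPM in Mock Pdgfra+ and Mock Pdgfralow cells. For ANGPT2 they were LOX, SPRY2, FZD8, LRRC8C and PROM1, at distances of 0.049 to 0.156. LOX, a collagen crosslinking enzyme gene, averaged 258 and 290 CPM in FGF8+10 Pdgfra+ and FGF8+10 Pdgfralow cells, and 39.0 and 39.6 CPM in Mock Pdgfra+ and Mock Pdgfralow cells. For TEK they were GINS4, ARL15, SSH1, SLC45A3 and EGFLAM, at distances of 0.043 to 0.089. For TIE1 they were APLNR, SORBS2, SCN9A, GPR4 and GABRE, at distances of 0.272 to 0.412, larger than those for ANGPT2 and TEK. APLNR, the apelin receptor gene, averaged 1.92 and 22.5 CPM in FGF8+10 Pdgfra+ and FGF8+10 Pdgfralow cells, and 4.40 and 5.59 CPM in Mock Pdgfra+ and Mock Pdgfralow cells. No gene appeared in the lists of more than 1 member, and the distances describe these 8 libraries, which share 4 groups.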

How the data were processed

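Total RNA was taken with TRI Reagent and sequenced from NEBNext Ultra libraries, per the labels' protocols. What the authors deposited is a single table of raw read counts, 1 row per gene name. The submitters' processing notes name FastQC 0.11.8, HISAT2 2.1.0 and the GRCh38 build. Per the file headers, featureCounts 2.0.3 counted exons by gene name on GENCODE release 42, with no strand set and both mates counted, so counts overstate independent fragments. Reads over more than 1 gene or mapped to several places were dropped.

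Tests on the deposited counts used edgeR 4.0.16 in R 4.3.3 (filterByExpr, TMM, robust quasi-likelihood fit, 1 mean per group over all 8 libraries, 4 residual degrees of freedom), with 5 contrasts tested on both sides. Benjamini-Hochberg adjustment covered all 22554 tested genes at 0.05. SE is the log2 fold change divided by the square root of F. For ANGPT1 in contrasts with Mock Pdgfralow cells it lies below the counting error. TMM factors were 0.936 to 1.065. Precision is limited by 2 libraries per group. The floor of 6 counts covers counting error only. Levels per length divide CPM by the exon length deposited with the counts. Alternatives were library totals, DESeq2 1.42.0, no filter, only the groups compared, a replicate block, leaving out each library, and another gene length. That length came from GENCODE release 29, an older release than that of the counts. The fit was tested on simulated data in which few genes changed, all of them well counted. That test does not cover broad change or the fold changes of genes with few counts.

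The members and lists were chosen with earlier results of these data known. Genes named for passing 2-fold were also picked by the same test. The p-values beside genes of the lists are therefore only a description. Named genes were the members, pathway and angiopoietin-like genes past 2-fold, the 3 most abundant of each other list, endothelial markers under 1 CPM on average, the sort genes, and the 5 nearest profiles per member. Other genes named, among them SVEP1, TAL1 and those given with few counts in all libraries, were chosen after their values were seen. 1 gene that this rule names is not reported here.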

Additional observations from a re-analysis of the deposited data

Results flagged for a closer look

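Differences between the FGF8+10 effects in the populations, Pdgfra+ minus Pdgfralow on the log2 scale, are collected here for genes named above from the lists. Only those that passed edgeR's quasi-likelihood test of the difference itself are given, as 26.0% of all tested genes did. Other genes of the lists that passed, among them SOX18, EMCN and MMRN2, were not included. Nor were the genes with similar profiles, TAL1 and the adaptors. Among the members the differences were -4.12 for ANGPT1 and -3.21 for TIE1, which are only a description, since the members were chosen with these effects known. ANGPT1 had positive effects in both populations, 4.01 and 8.14, whereas TIE1 had effects of opposite sign, -1.22 in Pdgfra+ and 1.98 in Pdgfralow cells.

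Among endothelial markers the difference was -4.76 for CLDN5, -4.34 for ESAM, -3.30 for PECAM1, -3.27 for CDH5, -2.42 for ERG, -1.46 for FLI1, -0.89 for EGFL7 and -0.23 for KDR. CLDN5 averaged 0.0591 CPM in FGF8+10 Pdgfra+ cells, under the limit for a gene without reads. Of all 15 endothelial markers, 11 passed with a negative difference and 1, CLEC14A at 1.32, with a positive difference. CD34 had a difference of -3.47 and RUNX1 of -2.15. Among pathway and angiopoietin-like genes it was -2.49 for PTPRB, -0.35 for ITGB1, 0.21 for ANGPTL2 and 0.86 for ANGPTL4. Among FGF response genes it was -2.05 for SPRY1, -0.48 for SPRED2 and -0.41 for SPRED1. For VEGF and hypoxia genes it was -0.75 for NRP2, -0.46 for NRP1, 0.14 for VEGFA and 0.19 for P4HA1. For mesenchymal and mural genes it was 0.90 for PDGFRB, 0.58 for PRRX1, 0.31 for HAND2, 0.26 for MSX1, 0.24 for NOTCH3 and -0.15 for RGS5.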

How the results depend on the processing

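Of 444 values recomputed under alternatives, 429 kept their direction and call, or stayed within 1.5 times for a count and within 1 SD for a ratio. For ratios most of these outcomes were fixed in advance. Scaling a library cannot change a ratio within it, and leaving out 1 of 2 libraries cannot move the mean past 1 SD. Only the other gene length could move a ratio. With no filter on low counts, the difference of TEK between Pdgfra+ and Pdgfralow cells under Mock was 0.08 and no longer passed, and the cause was not tested. With the longest coding transcript as the length, chosen after seeing the data, ANGPT1 over ANGPT2 was 3.02, 2.25, 1.16 and 0.0547 in FGF8+10 Pdgfra+, FGF8+10 Pdgfralow, Mock Pdgfra+ and Mock Pdgfralow cells. TEK over TIE1 was then 229, 27.1, 32 and 33, and TEK over ANGPT1 1.45, 1.70, 7.59 and 148, by the change in length alone. When each library was left out in turn, the count of TIE pathway genes called between the populations under Mock ranged from 4 to 7. A lone library was then assumed to vary like the other groups. The log2 fold change of TIE1 with FGF8+10 in Pdgfra+ cells ranged from -1.44 to -0.98, that of ANGPT1 in Pdgfralow cells from 8.03 to 8.25. The difference of TIE1 between the populations under Mock, which did not pass, ranged from -0.07 to 0.39, turning sign without Mock Pdgfra+ replicate 1. For the replicate block, same-numbered libraries did not deviate together (correlations of -0.014 to 0.024 between groups), so the numbers are not taken as pairs. With the block 11366 genes were called with FGF8+10 in Pdgfra+ cells, against 11469 without it, and 12451 against 12556 in Pdgfralow cells. It changed no member's call. Depth limits TIE1 in Pdgfra+ cells and the genes listed with few counts.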
